A study of Homo sapiens with 2 samples.

Results

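NODAL and 8 genes of its signalling pathway were followed in single human embryonic stem cells that had been exposed to bone morphogenetic protein 4 (BMP4), a differentiation signal. The genes were taken by symbol from the gene list of the deposited counts: the ligands NODAL, GDF3 and INHBA, the co-receptor TDGF1, the receptors ACVR1B and ACVR2B, the nuclear partner FOXH1, and the inhibitors LEFTY1 and LEFTY2. All 9 were present among 33538 genes in both libraries, and the rule that names them uses no measured value. Each of them reached at least 1 UMI (unique molecular identifier, 1 counted transcript) per 1000000 UMIs (CPM) in at least 1 library.

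The study counted transcripts in single cells of 2 libraries, 1 per group, after 48 h of BMP4 at 50 ng/ml in mTeSR1 medium. The library labelled WT was made from unmodified H1 cells, a long-established human embryonic stem cell line. The other, labelled GATA3 KO, was made from KO-GATA3-06, 1 clone with Cas9 targeting of GATA3, which encodes a transcription factor. That clone was derived from H1 cells with an inducible Cas9 cassette. Clone, cassette and genotype therefore cannot be told apart between the libraries. The protocol deposited with the WT library gives 1 h of BMP4, whereas its title and recorded duration give 48 h, which was used here.

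NODAL is a secreted ligand of the transforming growth factor β family. It signals through type I and type II activin receptors with a co-receptor of the CRIPTO family, and the signal is carried by SMAD2 and SMAD3, which bind DNA together with FOXH1 and other partners. In the early embryo NODAL patterns the epiblast and is required for the primitive streak, where MIXL1 and EOMES are switched on, and it also raises transcription of its own gene and of its secreted inhibitors LEFTY1, LEFTY2 and CER1. In cultured human pluripotent cells LEFTY1, LEFTY2, TDGF1 and GDF3 are known as genes of the undifferentiated state as well, and mTeSR1 itself contains a ligand of the transforming growth factor β family.

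Cells with more than 7500 detected genes or more than 25% mitochondrial counts were left out, as in the methods of the study. This left 2519 of 3802 WT cells, with 99587274 UMIs, and 4450 of 6221 GATA3 KO cells, with 175285931 UMIs. The libraries shared 8 cell barcodes. The transcript of GATA3 was counted at 12.7 CPM in the WT library and 10.9 CPM in the GATA3 KO library, and 3′ counts do not show whether the coding sequence was intact, so the libraries are called WT and GATA3 KO after their labels alone. Of the 5 pluripotency markers (POU5F1, SOX2, NANOG, LIN28A, DPPA4) none was near 0 in either library, with a summed level of 1807 and 2721 CPM. SOX2 was at least 2-fold higher in the GATA3 KO library, with POU5F1 and LIN28A at log2 ratios of 0.69 and 0.48. NANOG and DPPA4 went the other way, at -0.44 and -0.13. The 5 markers of the primitive streak (MIXL1, EOMES, TBXT, MESP1, GSC) summed to 252.8 CPM in the WT library and 12.3 CPM in the GATA3 KO library, and all 5 were at least 2-fold lower in the latter. The 4 markers of endoderm summed to 19.0 and 0.588 CPM, with FOXA2 and CXCR4 under 1 CPM in both libraries. The 5 markers of amnion or trophectoderm summed to 39.0 and 69.4 CPM, with TFAP2A and GATA2 at least 2-fold higher in the GATA3 KO library, KRT7 and HAND1 at log2 ratios of 0.88 and 0.13, and ISL1 at -0.60. The 5 markers of neural ectoderm summed to 49.2 and 118.9 CPM, with PAX6 and SOX1 under 1 CPM in both and IRX2 and OTX2 at least 2-fold higher in the GATA3 KO library. The part of these other cells in the results below was not tested beyond the cell sets described there, and in summed counts fewer cells of a type and less RNA per cell cannot be told apart.

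Stretches of 250 bases before the start of a gene were at hand for 5 of the 9 genes in the RefSeq table of build GRCh38.p14. Those of the 3 ligands are shown because the ligands moved in opposite directions between the libraries. Each runs 5′ to 3′ on the minus strand, which is the strand of the gene, with matches to the motifs searched in capitals. NODAL lies at chr10:70441682-70441931, GDF3 at chr12:7695776-7696025 and INHBA at chr7:41703091-41703340. The stretches of NODAL and INHBA fall in introns of longer transcripts of the same genes in the GENCODE annotation.
NODAL: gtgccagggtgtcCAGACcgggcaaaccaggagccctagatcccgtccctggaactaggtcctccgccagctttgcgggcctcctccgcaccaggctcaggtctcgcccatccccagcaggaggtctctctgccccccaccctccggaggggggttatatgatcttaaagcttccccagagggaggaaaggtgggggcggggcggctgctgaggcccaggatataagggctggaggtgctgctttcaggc
GDF3: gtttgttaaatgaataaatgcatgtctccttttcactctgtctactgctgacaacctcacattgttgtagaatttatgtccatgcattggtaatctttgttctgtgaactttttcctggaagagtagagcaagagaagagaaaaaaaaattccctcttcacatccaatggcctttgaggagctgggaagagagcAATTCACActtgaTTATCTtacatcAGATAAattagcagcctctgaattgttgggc
INHBA: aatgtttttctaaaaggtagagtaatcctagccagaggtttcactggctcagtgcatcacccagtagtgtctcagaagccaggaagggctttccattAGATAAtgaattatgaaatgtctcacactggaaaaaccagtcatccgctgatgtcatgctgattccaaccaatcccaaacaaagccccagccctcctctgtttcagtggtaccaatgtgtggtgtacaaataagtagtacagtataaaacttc
Of 35116 such stretches in the table, 2.89% held the FOXH1 core AATNCACA on either strand, 38.0% the SMAD core CAGAC, 9.17% the GATA core AGATAA and 2.15% the T-box core AGGTGTNA. NODAL held 1 CAGAC beginning 237 bases before its start. GDF3 held 1 match to the FOXH1 core at 56 bases and 2 to the GATA core, at 43 bases (on the other strand) and 31 bases. INHBA held 1 match to the GATA core at 153 bases. The T-box core matched none of the 3. In a stretch of ACVR1B that is not shown, the GATA core matched at 204 bases and, on the other strand, at 71 bases, and CAGAC at 124 bases. The log2 ratio of ACVR1B was -0.04. Any link between motif matches and differences between the libraries was not tested. Another stretch of ACVR1B and that of ACVR2B matched none of the motifs. These letters describe the stretches and show no binding.

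Over all kept cells, the GATA3 KO library had less NODAL, LEFTY1 and LEFTY2, GDF3 lay near 2-fold lower, INHBA was higher, and the co-receptor, the receptors and FOXH1 differed by less than 2-fold. Of the 9 genes, 4 were at least 2-fold lower and 1 was at least 2-fold higher on the scale of log2(CPM + 1). Of the 13523 genes that reached 1 CPM in either library, 2.27% were at least 2-fold lower, 2.06% were at least 2-fold higher, and the median log2 ratio was 0.07, against a median of -0.42 over the 9. With 1 library per group no test was possible, and every interval given is a 95% interval that covers counting error only. That scale understates differences of low genes.

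Among the ligands, NODAL was counted at 102.2 CPM (100.2 to 104.2) in the WT library and 18.2 CPM (17.6 to 18.9) in the GATA3 KO library. The level was 5.60 times higher in the former, a log2 ratio of -2.42 (-2.48 to -2.37). This placed NODAL 32nd from the lowest of the 13523 genes. GDF3, a ligand of the same family that is known from pluripotent cells, was counted at 25 and 11.7 CPM, a log2 ratio of -1.03 (-1.11 to -0.95). Its interval spans the 2-fold line, and with all deposited cells the ratio was -0.99, so that 3 rather than 4 of the genes were at least 2-fold lower. INHBA, whose product forms activin A, went the other way, with 21 UMIs (0.211 CPM, 0.130 to 0.322) in the WT library and 278 UMIs (1.59 CPM, 1.41 to 1.78) in the GATA3 KO library. The ratio of these levels was 7.52, which the log2(CPM + 1) scale gives as 1.10 (0.94 to 1.22) and a pseudocount of 0.1 CPM as 2.44. INHBA overlaps INHBA-AS1 on the other strand.

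The 2 secreted inhibitors were both lower in the GATA3 KO library. LEFTY1 was counted at 16.4 CPM (15.6 to 17.2) and 5.42 CPM (5.09 to 5.78), which gives a ratio on the log2 scale of -1.44 (-1.54 to -1.34). LEFTY2 was counted at 9.73 CPM (9.13 to 10.4) and 2.18 CPM (1.97 to 2.41), with a ratio of -1.76 on that scale (-1.88 to -1.63). The intervals of the 2 libraries did not overlap for either gene. The pair are near copies of each other and neighbours on chromosome 1, so shared reads were checked. In the last 500 bases of their GENCODE transcripts, where 3′ counts fall, LEFTY1 and LEFTY2 had no stretch of 75 bases in common.

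TDGF1, the co-receptor also called CRIPTO, was counted at 439.6 CPM (435.4 to 443.7) and 327.2 CPM (324.5 to 329.8), with a log2 ratio at -0.42 (-0.44 to -0.41). The difference is larger than counting error and smaller than 2-fold. Of the stretches of 75 bases in its last 500 bases, 42.7% also occur in the copy TDGF1P3, which has no entry of its own in the count table, so its level is uncertain. ACVR1B, the type I receptor also called ALK4, was counted at 5.81 and 5.64 CPM, a log2 ratio of -0.04 (-0.16 to 0.09) that includes no difference. ACVR2B, a type II receptor, was counted at 87.1 and 107.1 CPM (log2 ratio 0.30, 0.26 to 0.33). FOXH1 was counted at 60.4 and 80.2 CPM (log2 ratio 0.40, 0.36 to 0.45). Both were thus somewhat higher in the GATA3 KO library, and both have an overlapping gene on the other strand in the count table (ACVR2B-AS1 and KIFC2).

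**Figure D1:**
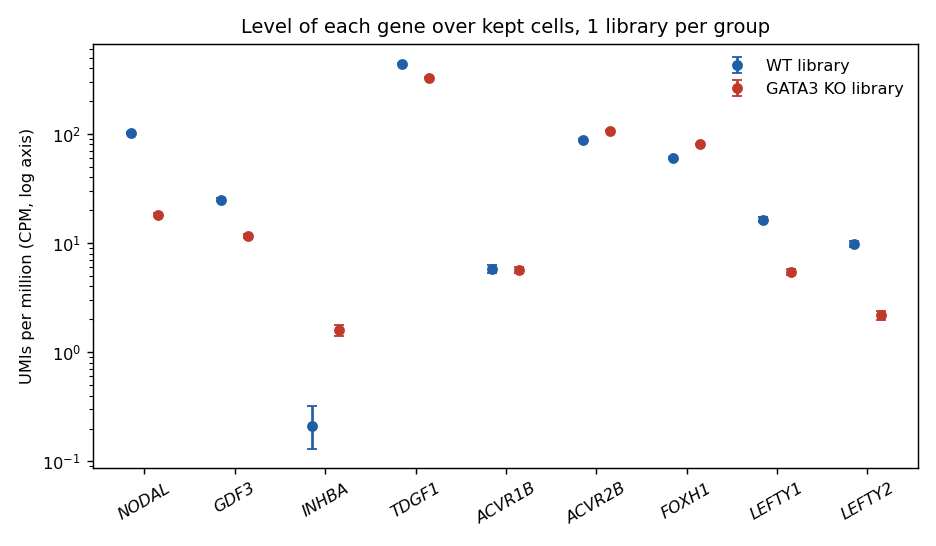
Level of each of the 9 genes in CPM (log axis) over kept cells of the WT library (blue) and the GATA3 KO library (red), with exact Poisson 95% intervals that are often smaller than the points. NODAL stands at 102.2 and 18.2 CPM and INHBA at 0.211 and 1.59 CPM, while ACVR1B is at 5.81 and 5.64 CPM.

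The other genes of the NODAL and activin pathway were taken from a list, of which 35 are reported. Of these, 27 reached 1 CPM in either library, 7 were at least 2-fold lower in the GATA3 KO library and none was at least 2-fold higher. Over all genes of at least 1 CPM these shares were 2.27% and 2.06%. The 7 comprised 1 inhibitor and 6 targets. CER1, a secreted inhibitor of NODAL, was counted at 65.2 and 1.06 CPM (log2 ratio -5.01). The targets were the transcription factors MIXL1 (135.8 and 3.999 CPM), EOMES (68.1 and 6.33 CPM), TBXT (22.6 and 1.32 CPM), MESP1 (16.2 and 0.331 CPM), GSC (10.1 and 0.359 CPM) and LHX1 (5.70 and 0.605 CPM). Without 7 genes whose ratios were known when the list was drawn up, 1 of 20 was at least 2-fold lower, LHX1. Beside the 2.27% of all genes, a count of 1 is not read as an excess.

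Of the 9 SMADs and nuclear partners, which carry the signal inside the cell, 0 were past 2-fold in either direction, where 2.27% and 2.06% of all genes were, so the count is near the background. Their log2 ratios lay between -0.60 for SKIL and 0.36 for TGIF2. SMAD2 was counted at 42.04 and 36.2 CPM, SMAD3 at 3.80 and 3.58 CPM and SMAD4 at 30.3 and 31.0 CPM. SMAD7 and PMEPA1, negative feedback genes of the pathway, lay at log2 ratios of -0.97 and -0.86, and with all deposited cells SMAD7 was past 2-fold at -1.17. FST, which binds activin, was counted at 67.6 and 72.6 CPM. These genes were picked for mention after their values were seen. The remaining ligands GDF1 and INHBB and the second co-receptor gene CFC1 stayed under 1 CPM in both libraries.

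**Figure D2:**
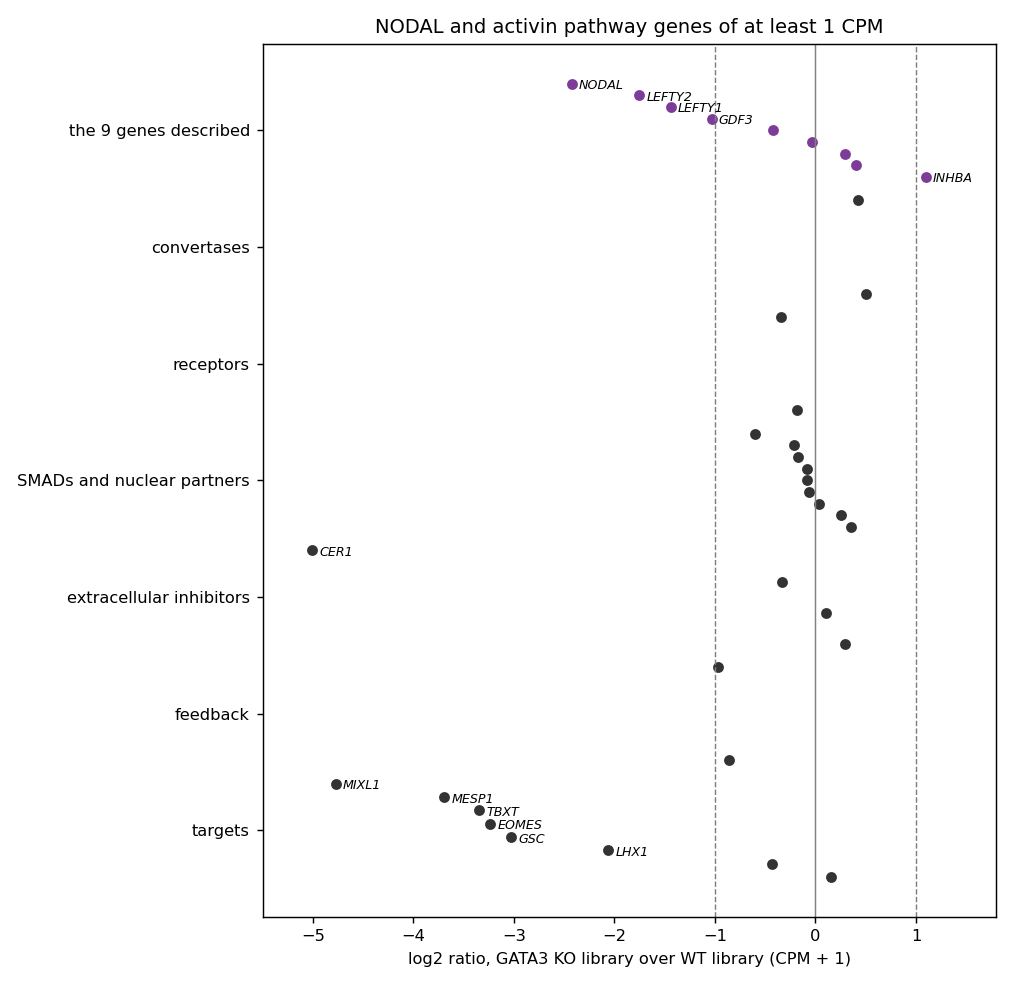
log2 ratio of CPM + 1 in the GATA3 KO library over the WT library for the 9 genes (purple) and the 27 other pathway genes of at least 1 CPM (dark grey), by role. Dashed lines mark 2-fold. The 6 targets named lie between -4.77 and -2.06 and CER1 at -5.01, while none of the 9 SMADs and nuclear partners passes 2-fold.

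To compare shares of cells, each cell was thinned at random to 10000 UMIs, which left 2173 and 4038 cells and left out 346 and 412 shallower ones. NODAL was then detected in 49.0% (46.8 to 51.1) of WT cells and 9.56% (8.67 to 10.5) of GATA3 KO cells, against 65.1% and 15.3% before thinning. As a gauge of free RNA the share was also taken in reference cells, which held TFAP2A or HAND1 and no SOX2, MIXL1 or EOMES. In 111 and 312 such cells, with medians of 44568 and 45768.5 UMIs against 47122 and 44830 over all thinned cells, NODAL was detected in 33.3% (24.7 to 42.9) and 9.94% (6.85 to 13.8). In the WT library the share over all cells exceeded that gauge. In the GATA3 KO library it did not, and over all cells it is not read as expression there, although the share differed widely between sets of cells. Reference cells can hold NODAL of their own, so a share no higher than theirs does not show that it is free RNA.

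GDF3 was detected in 19.0% and 10.9% of thinned cells (42.2% and 28.6% before thinning), against 6.31% and 4.49% of reference cells. LEFTY1 was detected in 10.8% (9.50 to 12.2) and 3.37% (2.83 to 3.97) of cells (22.6% and 6.88% before thinning), against 0.901% and 0.962% of reference cells. LEFTY2 was detected in 7.13% (6.09 to 8.30) and 1.93% (1.53 to 2.41) of cells (18.0% and 4.61% before thinning), against 3.604% (0.990 to 8.97) and 1.28% (0.350 to 3.25) of reference cells. For LEFTY2 the intervals of all cells and reference cells overlapped in both libraries. For LEFTY1 in the GATA3 KO library, the interval over all cells lay above that in reference cells.

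TDGF1 was detected in 92.5% and 86.5% of thinned cells (92.1% and 90.2% before thinning), against 47.7% and 30.8% of reference cells. FOXH1 was detected in 42.6% and 52.4% (75.2% and 83.2% before thinning), against 22.5% and 26.9%. ACVR2B was detected in 57.1% and 64.8% (82.0% and 88.5% before thinning), against 38.7% and 51.9%. All 3 thus stood above their share in reference cells in both libraries. Reference cells were chosen without SOX2, with which TDGF1 varied from cell to cell (r 0.38 and 0.41). For TDGF1 a lower share there goes with that choice and does not gauge free RNA. ACVR1B was detected in 5.66% and 5.37% of cells (20.0% and 19.6% before thinning), against 6.31% and 4.49% of reference cells, which do not differ beyond their intervals. INHBA was detected in 8 of 2173 cells (0.368%) and 69 of 4038 cells (1.71%), or 0.635% and 5.53% before thinning, against 0 of 111 and 1 of 312 reference cells.

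UMIs of the inhibitors were held by few cells. In the WT library, 182 thinned cells held LEFTY1 and no LEFTY2, 103 held LEFTY2 and no LEFTY1, and 52 held both. The GATA3 KO counts were 114, 56 and 22. The ratio of LEFTY1 to LEFTY2 UMIs was 1.74 and 2.07. Cells with LEFTY1 held LEFTY2 more often than cells without it, at 22.2% against 5.31% in the WT library and 16.2% against 1.44% in the GATA3 KO library. The highest count of LEFTY1 in 1 thinned cell was 9 and 5 UMIs, and that of LEFTY2 was 7 and 6 UMIs.

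MIXL1 and EOMES, both transcription factors of the primitive streak, were used to mark cells. At least 1 UMI of either was found in 917 of 2173 thinned WT cells (42.2%) and 226 of 4038 GATA3 KO cells (5.60%). In both libraries NODAL was found more often in these streak-marked cells than in the others. WT cells held it in 71.3% (68.3 to 74.2) of streak-marked cells and 32.6% (30.1 to 35.3) of the others, with levels of 159.4 and 54.1 CPM. GATA3 KO cells held it in 54.0% (47.2 to 60.6) and 6.93% (6.14 to 7.78), with levels of 124.8 and 11.8 CPM. The 5.60% of cells that were streak-marked there held 38.5% of NODAL UMIs. Median depths before thinning were 48955 and 46036.5 UMIs in the WT library and 46666.5 and 44743 UMIs in the GATA3 KO library, for marked and other cells. The mark depends on depth. At 20000 UMIs it was found in 1000 of 1971 WT and 333 of 3661 GATA3 KO cells. Without thinning it was found in 1370 of 2519 and 583 of 4450. The other cells thus include some whose mark was lost by thinning.

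The inhibitors did not follow the same pattern in the 2 libraries. In the WT library, LEFTY1 was detected in 10.3% of streak-marked cells and 11.1% of the others, a difference of -0.90 percentage points (-3.55 to 1.84). In the GATA3 KO library it was detected in 14.6% and 2.70%, a difference of 11.9 points (7.53 to 17.2). LEFTY2 was detected in 7.74% and 6.69% in the WT library, a difference of 1.05 points (-1.19 to 3.39), and in 9.29% and 1.495% in the GATA3 KO library, a difference of 7.797 points (4.32 to 12.4). For both inhibitors the interval of the difference included 0 only in the WT library, and the intervals of the 2 libraries did not overlap. Without thinning the differences in the WT library became 11.0 points for LEFTY1 and 11.7 points for LEFTY2. Depth is then unequal between cells. FOXH1, ACVR1B and ACVR2B, whose thinned intervals in that library included 0, became 16.9, 7.26 and 17.75 points, and INHBA stayed at -0.752.

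GDF3 was detected in 25.7% of streak-marked and 14.2% of other WT cells, and in 21.2% and 10.3% of GATA3 KO cells. Its differences of 11.6 (8.09 to 15.1) and 10.9 points (5.66 to 16.9) had overlapping intervals. TDGF1 was detected in 94.7% and 90.9% of WT cells and in 81.9% and 86.8% of GATA3 KO cells. The latter difference of -4.89 points (-10.7 to 0.03) included 0 and was 0.575 points when cells were thinned to 20000 UMIs and 5.58 points without thinning. Its level was lower in streak-marked cells in both libraries, at 400.9 against 464.6 CPM and 247.8 against 329.1 CPM. INHBA had no UMI in 917 and 226 streak-marked cells, which allows shares of up to 0.327% and 1.33% by the limit of 3 cells (exact upper bounds 0.401% and 1.62%), against 0.637% and 1.81% of the others. The differences of -0.64 (-1.25 to -0.10) and -1.81 points (-2.29 to -0.14) rest on 8 and 69 cells with a UMI. FOXH1 was detected in 44.3% and 41.4% of marked and other WT cells and in 45.6% and 52.8% of GATA3 KO cells, and the latter order turned without thinning. After thinning, ACVR1B and ACVR2B differed by at most 1.34 points between marked and other cells, with intervals that included 0 in both libraries.

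**Figure D3:**
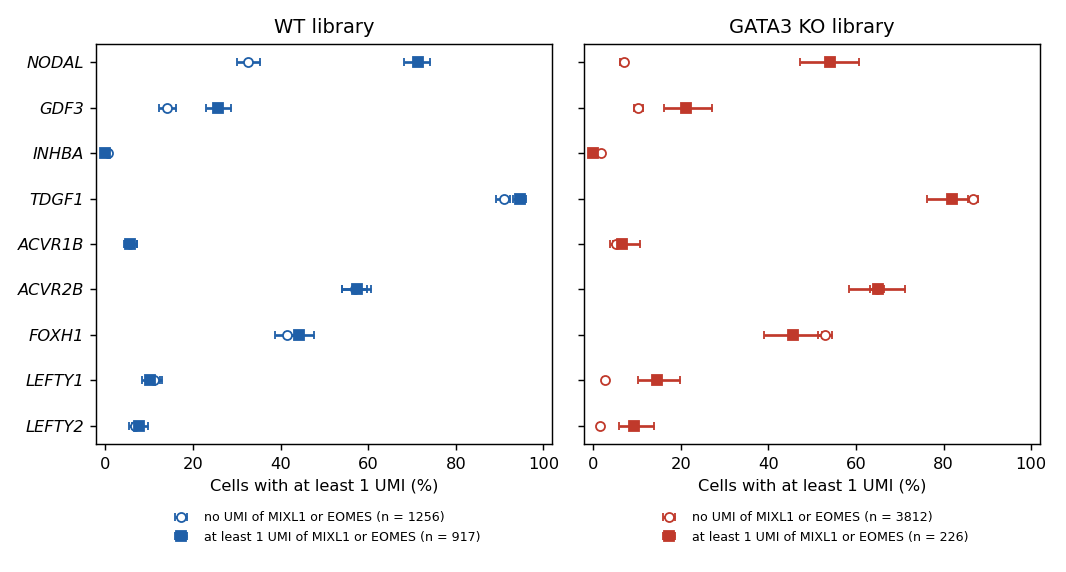
Share of thinned cells (%) with at least 1 UMI of each gene, in cells with (filled squares) and without (open circles) a UMI of MIXL1 or EOMES, in the WT library (left) and the GATA3 KO library (right), with exact Clopper-Pearson 95% intervals. NODAL is at 71.3% and 32.6% on the left and at 54.0% and 6.93% on the right, while LEFTY1 is apart only on the right (14.6% and 2.70%).

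The levels were then followed by the number of MIXL1 and EOMES UMIs in a cell. NODAL in WT cells rose from 54.1 CPM in cells with 0 such UMIs to 131.2 CPM with 1, 159.8 CPM with 2 to 4 and 183.4 CPM with 5 or more. In the GATA3 KO library it rose from 11.8 to 95.8, 190.7 and 250 CPM. The last 2 values rest on 43 and 16 cells, and without the last the level still rose at each step. At 2 to 4 UMIs the intervals of NODAL overlapped between the libraries (146.3 to 174.3 and 151.7 to 236.7 CPM), whereas at 0 UMIs they lay far apart (50.2 to 58.4 and 10.7 to 12.9 CPM).

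LEFTY1 in the WT library stood at 18.8, 18.5 and 19.6 CPM in the first 3 bins and at 7.19 CPM (4.56 to 10.8) in cells with 5 or more such UMIs. Its level was thus lowest in the cells richest in MIXL1 and EOMES. In the GATA3 KO library it stood at 3.73, 19.2, 34.9 and 62.5 CPM. LEFTY2 stood at 9.47, 9.06, 14.3 and 7.81 CPM in the WT library and at 1.73, 7.78, 20.9 and 50.0 CPM in the GATA3 KO library. The rise of both inhibitors with MIXL1 and EOMES was therefore seen in the GATA3 KO library, also without its last bin of 16 cells, and not in the WT library. TDGF1 showed no steady rise in either library, at 464.6, 361.2, 401.2 and 434.7 CPM and at 329.1, 238.3, 251.2 and 337.5 CPM.

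**Figure D4:**
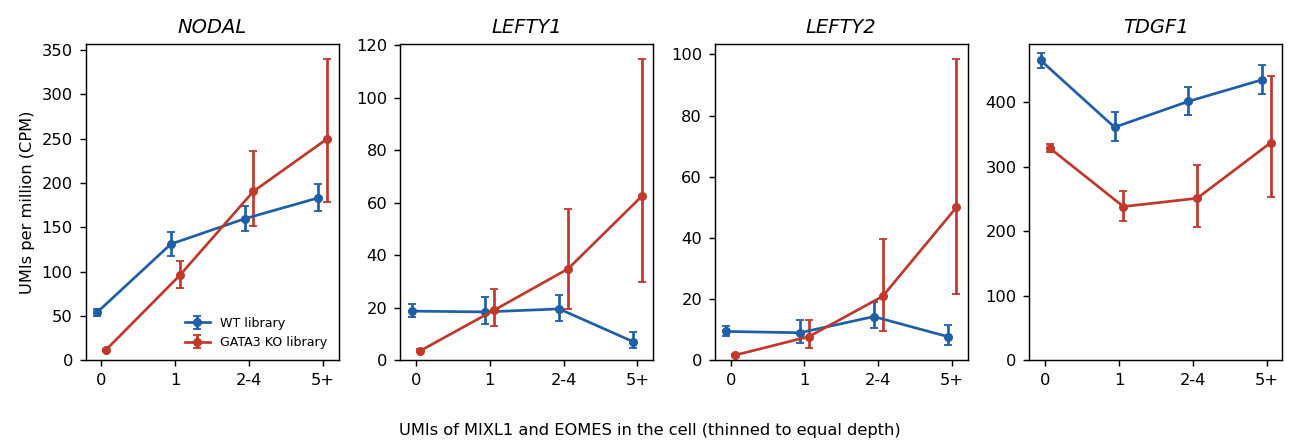
Level in CPM of NODAL, LEFTY1, LEFTY2 and TDGF1 by the number of MIXL1 and EOMES UMIs in a thinned cell, in the WT library (blue) and the GATA3 KO library (red), with exact Poisson 95% intervals. NODAL climbs in both libraries, to 183.4 and 250 CPM, whereas LEFTY1 falls to 7.19 CPM in the last bin of the WT library and reaches 62.5 CPM in that of the GATA3 KO library (16 cells).

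Cells were next divided into 4 exclusive sets by UMIs of named genes: streak-marked, then TFAP2A or HAND1 (transcription factors of amnion and trophectoderm), then SOX2 (a transcription factor of pluripotent and neural cells), and cells with none of these. These sets are not cell types. Their shares were 42.2%, 7.18%, 39.4% and 11.2% in the WT library and 5.60%, 17.3%, 73.5% and 3.64% in the GATA3 KO library. In SOX2-marked cells, NODAL stood at 46.5 CPM in the WT library and 9.07 CPM in the GATA3 KO library, a log2 ratio of -2.24 (-2.45 to -2.03). In streak-marked cells the ratio was -0.35 (-0.54 to -0.17). In SOX2-marked cells NODAL was detected in 26.9% of WT and 5.39% (4.61 to 6.27) of GATA3 KO cells. Reference cells held it in 33.3% and 9.94% (6.85 to 13.8). In the GATA3 KO library the interval of SOX2-marked cells lay below that of reference cells, which thus held more NODAL. The gauge therefore cannot decide how much of these levels is free RNA. The ratios of the 2 sets are given side by side with no reading.

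LEFTY1 in SOX2-marked cells stood at 18.8 and 3.57 CPM (log2 ratio -2.12, -2.42 to -1.80), and in streak-marked cells at 14.9 and 25.2 CPM (0.72, 0.27 to 1.15). The direction of its difference between the libraries was thus opposite in the 2 sets. In SOX2-marked cells LEFTY1 was detected in 11.2% (9.18 to 13.5) of WT and 2.63% (2.08 to 3.27) of GATA3 KO cells. Reference cells held it in 0.901% (0.0228 to 4.92) and 0.962% (0.199 to 2.78), with overlap only in the GATA3 KO library. The LEFTY1 level of SOX2-marked GATA3 KO cells is therefore not told apart from free RNA. The streak-marked sets differed in make-up. They held 276 WT and 167 GATA3 KO cells with 1 MIXL1 or EOMES UMI, and 320 and 16 with 5 or more. LEFTY1 intervals of the libraries overlapped at 1 UMI (18.5 and 19.2 CPM) and at 2 to 4 (19.6 and 34.9 CPM). They did not at 5 or more, with 7.19 CPM (4.56 to 10.8) and 62.5 CPM (29.97 to 114.9). The part of this make-up in the LEFTY1 difference was not tested. LEFTY2 stood at 10.4 and 1.65 CPM in SOX2-marked cells (log2 ratio -2.10, -2.47 to -1.71) and at 10.5 and 13.3 CPM in streak-marked cells (0.32, -0.27 to 0.88). Its detection in SOX2-marked cells, 7.01% and 1.35%, overlapped that of reference cells within the intervals. In cells marked by TFAP2A or HAND1, LEFTY1 had 1 UMI in 156 WT cells (0.641 CPM) and 17 UMIs in 699 GATA3 KO cells (2.43 CPM, 1.42 to 3.89), the latter overlapping the 3.57 CPM (2.93 to 4.32) of SOX2-marked cells. The number of LEFTY1 UMIs per NODAL UMI in the WT library was 0.0937 in streak-marked cells, 0.0145 in cells marked by TFAP2A or HAND1 (1 LEFTY1 UMI) and 0.404 in SOX2-marked cells. In the same order it was 0.202, 0.185 and 0.394 in the GATA3 KO library, a narrower range. INHBA was counted mainly in SOX2-marked cells, with 7 of its 8 UMIs in the WT library and 67 of 71 in the GATA3 KO library, at 0.818 and 2.26 CPM.

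TDGF1 was lower in the GATA3 KO library in all 4 sets, with log2 ratios from -0.69 in streak-marked cells (400.9 and 247.8 CPM) to -0.32 in cells marked by TFAP2A or HAND1 (184 and 147.2 CPM). FOXH1 stood at 65.7 and 66.4 CPM in streak-marked cells (log2 ratio 0.02, -0.25 to 0.27) and at 64.7 and 90.5 CPM in SOX2-marked cells (0.48, 0.35 to 0.61). GDF3 in SOX2-marked cells stood at 17.4 and 11.9 CPM (log2 ratio -0.52, -0.78 to -0.25). For GDF3 no set showed a difference as large as that over all cells.

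**Figure D5:**
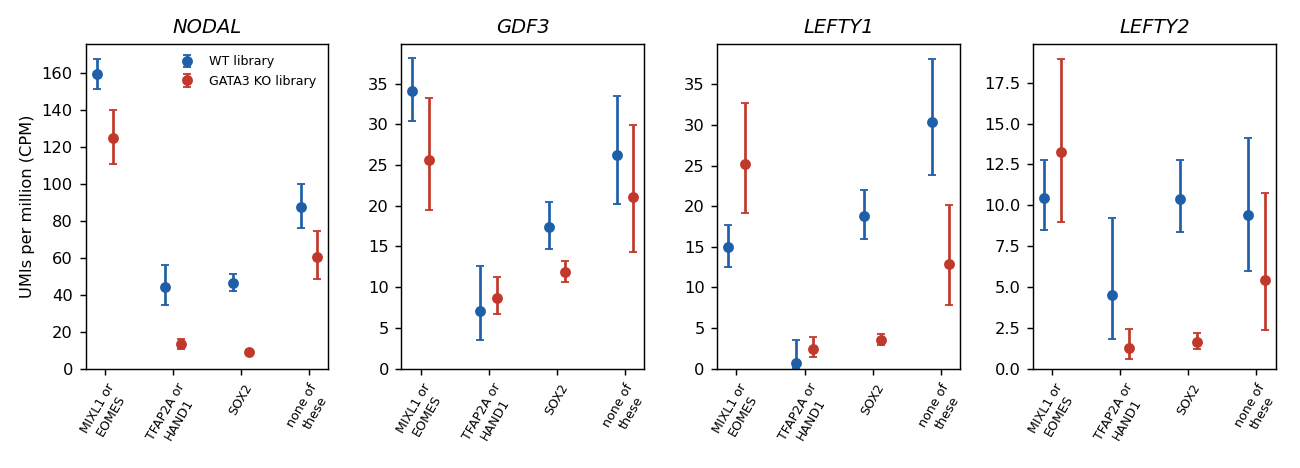
Level in CPM of NODAL, GDF3, LEFTY1 and LEFTY2 in 4 exclusive sets of thinned cells, in the WT library (blue) and the GATA3 KO library (red), with exact Poisson 95% intervals. In SOX2-marked cells NODAL is at 46.5 and 9.07 CPM and LEFTY1 at 18.8 and 3.57 CPM, while in streak-marked cells LEFTY1 is at 14.9 and 25.2 CPM.

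How far the smaller number of streak-marked cells goes with these differences was worked out by arithmetic. Had the marked and other WT cells kept their own levels but been mixed at the 5.60% of the GATA3 KO library, NODAL would have stood at 60.03 CPM, between the 98.6 and 18.1 CPM of the thinned cells in the 2 libraries. By this arithmetic the change of share comes to 47.9% of the difference in NODAL and 48.6% of that in GDF3 (18.8 CPM, between 24.7 and 12.4 CPM). It takes the level in cells without MIXL1 or EOMES as their own. It also takes the mark as complete, although thinning removed it from some cells, and the effect of this was not tested. NODAL was detected in 32.6% and 6.93% of cells without the mark, no more than in reference cells. Reference cells are themselves part of these cells, so the comparison cannot decide how much of this NODAL is free RNA. For NODAL the 47.9% is therefore not a measured part. GDF3 was detected in 14.2% (12.3 to 16.2) of these WT cells against 6.31% (2.57 to 12.6) of reference cells, with overlapping intervals. In the GATA3 KO library the shares were 10.3% (9.39 to 11.4) and 4.49% (2.48 to 7.41), which did not overlap. The 48.6% of GDF3 is thus not read as a measured part either. For LEFTY1 the same step gave 18.6 CPM, slightly above the 17.2 CPM of the WT library. For LEFTY2 it made up 4.84% of the difference. In cells not marked by MIXL1 or EOMES, LEFTY1 stood at 18.8 and 3.73 CPM and LEFTY2 at 9.47 and 1.73 CPM. In the GATA3 KO library LEFTY1 was detected in 2.70% (2.21 to 3.27) of these cells. This overlapped the 0.962% (0.199 to 2.78) of reference cells, so the 3.73 CPM is not told apart from free RNA. LEFTY2 was detected in 6.69% and 1.495% of these cells, which did not differ from the 3.604% and 1.28% of reference cells beyond their intervals, so its level there is not told apart from free RNA.

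Co-detection with other genes described these cells further. Cells with LEFTY1 held NANOG, a transcription factor of pluripotent cells, more often than cells without it, at 65.4% against 47.0% in the WT library and 71.3% against 37.3% in the GATA3 KO library. They also held NODAL more often, at 62.4% against 47.3% and 55.9% against 7.95%. NODAL-positive cells held SOX2 less often than NODAL-negative cells, at 43.5% against 66.7% and 70.5% against 88.6%. They held CER1 more often, at 17.3% against 5.59% and 2.85% against 0.246%. NODAL-positive cells held NANOG more often as well, at 54.6% against 43.6% and 66.3% against 35.5%. NANOG thus went with both NODAL and LEFTY1, and the gap in NODAL detection between LEFTY1-positive and other cells was wider in the GATA3 KO library.

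The genes most like NODAL were ranked by Pearson's r of log counts over the 2173 thinned WT cells, as a description in which all genes share library and depth. Of 9318 genes, 37 had an r of at least 0.2. The highest were TUBB2A (0.40, and 0.33 over the 4038 GATA3 KO cells), GAL (0.40 and 0.24), TUBB2B (0.39 and 0.26), SERPINE2 (0.39 and 0.18) and MIXL1 (0.36 and 0.30). For TDGF1, 55 genes reached 0.2, led by TERF1 (0.50 and 0.55), SOX2 (0.38 and 0.41), DNMT3B (0.37 and 0.38), USP44 (0.35 and 0.33) and H3F3A (0.33 and 0.27). TDGF1 thus varied from cell to cell with SOX2 and DNMT3B, which are known from pluripotent cells, whereas its r with NODAL was -0.04 and -0.06. At this depth no gene reached 0.2 for LEFTY1 or LEFTY2, whose r with each other was 0.198 and 0.166. In sparse counts such weak values are not read further. NODAL and LEFTY1 had an r of 0.08 in the WT library and 0.30 in the GATA3 KO library.

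LEFTY1 (chr1:225886282-225911382), LEFTY2 (chr1:225936598-225941383) and MIXL1 (chr1:226223618-226227060) lie close together in build GRCh38, all protein-coding, with the LEFTY genes on the minus strand. Ratios of other genes within 500 kb were read to see whether the stretch moved as a whole. Those reported, with 20 CPM or more in either library, had log2 ratios between -0.77 for SRP9 (607.8 and 355.1 CPM) and 0.42 for PARP1 (283 and 378.6 CPM), apart from MIXL1 at -4.77. The other neighbours reported thus lay within 2-fold, unlike LEFTY1, LEFTY2 and MIXL1. Of all 13523 genes of at least 1 CPM, 12937 lay within 2-fold too, so this is near the background. Whether the stretch moved as a whole was therefore not tested.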

How the data were processed

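Single-cell transcripts were counted by 10x Genomics 3′ v3 chemistry in 1 library per group, grouped by the deposited labels. The authors aligned reads with Cell Ranger to its GRCh38 reference and deposited raw UMI counts per gene and called cell, with no filter on genes or mitochondrial share. Build GRCh38 is also named in the submitters' processing notes.

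Cells were kept at up to 7500 detected genes and 25% mitochondrial counts. Kept counts were summed and divided by the library total (CPM), with exact Poisson intervals. The interval of a ratio was taken from how the 2 counts split (exact binomial), and shares carry Clopper-Pearson intervals. For shares, each cell was thinned to 10000 UMIs (seed 42). PCR duplicates were collapsed by UMI, and intervals hold counting error alone. No test was made, as each group was 1 library. Nothing states separate cultures.

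Scrublet in scanpy 1.11.5 called 1 and 2 doublets, too few for a caller that works, so none was removed. As an alternative the 116 and 310 highest-scoring cells were removed (57 and 171 of those kept), at 0.8% per 1000 cells. TMM factors came from edgeR 4.0.16, and other steps used Python 3.11.15, scipy 1.17.1 and pandas 2.3.3. The ratio and its interval were tested on simulated counts. Thinning was checked in WT cells against the expected detection of the members, and the other intervals against known values. The other alternatives were all deposited cells, the mitochondrial limit alone, the mean of per-cell CPM, a pseudocount of 0.1 CPM, minimum levels of 5 and 20 CPM, thinning to 20000 UMIs or none, and a minimum of 2 UMIs.

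The members, gene lists and rules were chosen with earlier results of these data known. Named were the members, MIXL1 and EOMES, markers, pathway genes past 2-fold, up to 5 genes of r at least 0.2 per member, copies of TDGF1, and genes of at least 20 CPM within 500 kb of the LEFTY genes. Candidates for r were detected in at least 5% of thinned WT cells. A gene of the pathway list and a neighbour of the LEFTY genes are not reported here, and counts leave them out.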

Additional observations from a re-analysis of the deposited data

Results flagged for a closer look

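For 4 genes the difference in detection between cells with and without a UMI of MIXL1 or EOMES had one sign in the WT library and the other in the GATA3 KO library. The difference between the libraries was not tested, since each group is 1 library, and a sign alone can differ by counting error. For LEFTY1 the difference was -0.896 percentage points in the WT library and 11.9 points in the GATA3 KO library, with intervals that did not overlap. For TDGF1 it was 3.73 points (1.48 to 5.93) and -4.89 points (-10.7 to 0.03). The latter sign did not hold in other settings, with 0.575 points when thinned to 20000 UMIs, 5.58 without thinning and 3.402 with a minimum of 2 UMIs. For FOXH1 it was 2.87 points (-1.40 to 7.15) and -7.26 points (-14.1 to -0.33). For ACVR1B it was -0.171 and 1.34 points, and both intervals included 0.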

How the results depend on the processing

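No paired analysis was possible because each group is 1 library and the replicate numbers are only names. Of 228 values recomputed under an alternative, 151 stayed near the value reported, 75 moved and 2 reversed. Near meant within counting error for ratios and differences, and within a fixed tolerance for counts of genes and for r. A change of sign counted as reversed only where the main interval left out 0. Other changes of sign were not, such as TDGF1 in the GATA3 KO library, from -4.89 points to 5.58 without thinning. The log2 ratio of NODAL became -2.26 with all deposited cells, -2.24 with the mitochondrial limit alone, -2.48 with a pseudocount of 0.1 CPM and -2.485 as the mean of per-cell CPM. That of LEFTY1 became -1.58 with the smaller pseudocount and -1.72 as the mean of per-cell CPM, and that of LEFTY2 became -2.11 with the smaller pseudocount. Of the 9 genes, 2 were at least 2-fold lower at a minimum of 20 CPM, and 0 were at least 2-fold higher at a minimum of 5 or 20 CPM, since both minimums leave INHBA out. For the difference in detection between streak-marked and other cells in the WT library, thinning to 20000 UMIs gave 49.8 points for NODAL and 3.42 points for LEFTY2, and no thinning gave 54.1 points for NODAL, 11.0 for LEFTY1 and 11.7 for LEFTY2. ACVR2B went from 0.434 to 17.75 points there without thinning, where depth is unequal between cells. In the GATA3 KO library, no thinning gave 22.1 points for LEFTY1 and 13.8 for LEFTY2, and a minimum of 2 UMIs (59 marked cells) gave 71.1 points for NODAL, 18.9 for LEFTY1 and 13.5 for LEFTY2. FOXH1 in that library turned from -7.26 points to 7.08 without thinning and 0.117 with a minimum of 2 UMIs, and the cause was not tested. Depth limits INHBA, ACVR1B and LEFTY2 most, whose shares in the WT library rest on 8, 123 and 155 thinned cells.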

Other observations

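The cells left out by the limits also held the members. In the WT library, LEFTY1 stood at 40.6 CPM in cells over the mitochondrial limit, against 16.4 CPM in kept cells, and in the GATA3 KO library at 3.37 against 5.42 CPM. TDGF1 stood at 265.5 and 184.1 CPM in these cells, lower than the 439.6 and 327.2 CPM of kept cells. Cells marked by none of the genes used, 244 in the WT and 147 in the GATA3 KO library, held LEFTY1 at 30.3 CPM (23.8 to 38.1) and 12.9 CPM (7.78 to 20.2). In the WT library this was the highest of the 4 sets.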
